A study of Solanum lycopersicum x Solanum pennellii and Solanum lycopersicum with 21 samples.

Results

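SODCP.2 is the symbol of a chloroplast copper/zinc superoxide dismutase, and DHAR2 that of a dehydroascorbate reductase. Both were followed in tomato anthers collected the day before the flowers opened. The array's annotation gives each gene 1 probe set. They are 2 genes of the 802 with a symbol, and 2 of 909 named probe sets among 10101 tested. The pair was selected on earlier results of these same arrays. SODCP.2 was chosen by its lower level in the introgression line IL-1_1_3, and DHAR2 by its higher level in IL-8_1_1. Those 2 differences, and every difference of each gene that involves the line that chose it, are therefore given as descriptions without a test.

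The arrays hold M82, the domesticated parent that served as control, with 6 arrays, and 4 lines in which a segment from the wild relative Solanum pennellii stands in the tomato genome. There are 3 arrays of IL-1_1_3 and 4 for each of the lines IL-8_1_1, IL-7_2 and IL-4_2. The titles name the lines in this way, while the line field shortens IL-1_1_3 to IL-1_1 and IL-8_1_1 to IL-8_1. Each M82 title carries the words Pollen Control, whereas no title of a line names pollen. All arrays are described here as anthers. Although the lines are called hybrids in the design text, the number of copies of the segment in each plant is not stated. All plants were grown in a greenhouse under the same treatment. Replicates carry numbers but no statement that each came from its own plants. The p-values therefore describe the scatter of these arrays, part or all of which may be technical.

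Superoxide dismutases turn superoxide, formed when electrons leak from electron transport, into hydrogen peroxide and oxygen. Plants hold copper/zinc forms in the chloroplast and the cytosol, an iron form in the chloroplast and a manganese form in mitochondria. Hydrogen peroxide is then removed by catalase, by peroxiredoxins and, in the ascorbate-glutathione cycle, by ascorbate peroxidase. In that cycle monodehydroascorbate reductase and dehydroascorbate reductase bring oxidised ascorbate back to ascorbate, the latter with glutathione as the electron donor. Reactive oxygen in the anther is known for its part in the timed death of the tapetum, the layer that feeds the developing pollen.

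The values are the authors' log2 expression values, which lay between 3.39 and 14.69 for every probe set, with array medians between 9.49 and 9.55. Levels of different probe sets cannot be set against each other on this scale. Of 5 genes listed as pollen markers, Shy measured 14.01 ± 0.08 (SD, n = 6), PRK2 12.52 ± 0.25 and PRK1 12.36 ± 0.40 in M82. In the same arrays PRK3 measured 7.32 ± 1.20 and Stig1 4.23 ± 0.09. Stig1 encodes a protein known from the stigma that binds pollen receptor kinases, so its place among the pollen markers is doubtful. The pollen genes named LAT, which were also planned as markers, are not among the 5. No tapetum marker was found under a known symbol. In such whole-tissue RNA, fewer cells of a type and less RNA per cell cannot be told apart.

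SODCP.2 was lower in IL-1_1_3 than in M82. Its log2 values in the M82 arrays had a lowest value of 11.58, a median of 11.90 and a highest value of 12.03. In IL-1_1_3 the 3 arrays measured 11.38, 11.17 and 11.45. All 3 lay below every M82 array, with a gap of 0.14 between the groups. Among all probe sets, 3.94% had every IL-1_1_3 array below every M82 array. The mean was 11.85 ± 0.16 (SD, n = 6) in the control and 11.33 ± 0.14 (n = 3) in the line. The log2 difference was -0.52 ± 0.13 (SE), or a 1.43-fold lower level, in the line that chose the gene.

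The other lines lay between or beside those groups. IL-4_2 measured 12.01, 11.95, 11.70 and 11.88 for SODCP.2, with a mean of 11.88 ± 0.13 (n = 4), all within the range of M82. IL-8_1_1 measured 11.91, 11.53, 11.73 and 11.73, and 1 of its 4 arrays was below every M82 array. IL-7_2 was split, with 11.38 and 11.46 below every M82 array and 11.98 and 11.76 within their range, giving a mean of 11.64 ± 0.28 (n = 4). From high to low the means ran IL-4_2, M82, IL-8_1_1, IL-7_2 and IL-1_1_3.

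None of the 3 comparisons of SODCP.2 with M82 that its choice did not use passed limma's moderated test at an adjusted p of 0.05. The log2 change was 0.03 ± 0.12 (SE) in IL-4_2, with a 95% interval of -0.21 to 0.28 and an adjusted p of 0.908 in limma. In IL-8_1_1 it was -0.13 ± 0.12, with an interval of -0.37 to 0.12 and a limma adjusted p of 0.846. In IL-7_2 it was -0.21 ± 0.12, with an interval of -0.45 to 0.03 and a limma adjusted p of 0.465. Leaving out 1 array moved the IL-7_2 value to -0.12 (without its array 1), -0.15 (array 2) or -0.32 (array 3), and that of IL-8_1_1 to -0.06 (array 2) or -0.19 (array 1).

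**Figure D1:**
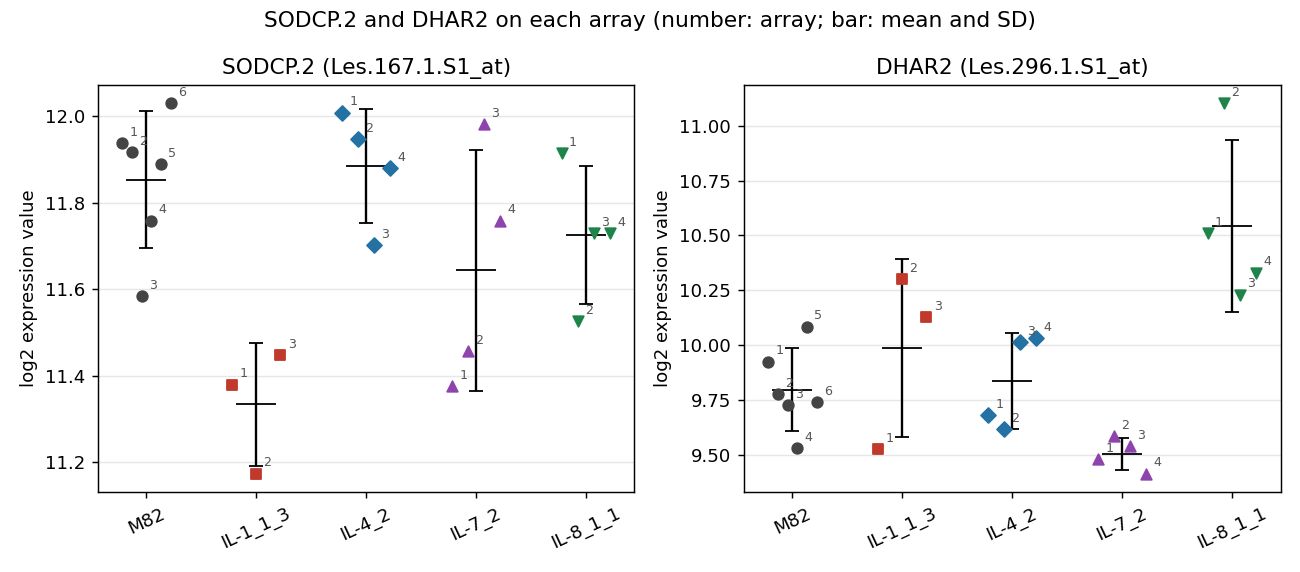
Log2 expression value of SODCP.2 and of DHAR2 in each array, by group, with bars at the group means and error bars of 1 SD. The 3 IL-1_1_3 arrays lie below all 6 M82 arrays for SODCP.2, and the 4 IL-8_1_1 arrays lie above all 6 for DHAR2.

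DHAR2 was higher in IL-8_1_1 than in M82. The M82 arrays had a lowest log2 value of 9.53, a median of 9.76 and a highest value of 10.08. In IL-8_1_1 the 4 arrays measured 10.51, 11.10, 10.23 and 10.33. All 4 lay above every M82 array, by at least 0.15, and 1.4% of all probe sets had every IL-8_1_1 array above every M82 array. The mean was 10.54 ± 0.39 (SD, n = 4) against 9.80 ± 0.19 (n = 6). The log2 difference was 0.75 ± 0.16 (SE), or a 1.68-fold higher level, in the line that chose the gene. Without array 2, the highest, the difference was 0.56.

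For DHAR2 the other lines spread on both sides of the control. IL-1_1_3 was the most scattered of them, with 9.53 just below every M82 array and 10.30 and 10.13 above every one (mean 9.98 ± 0.41, n = 3). IL-4_2 measured 9.68, 9.62, 10.01 and 10.03, within the M82 range (mean 9.84 ± 0.22, n = 4). IL-7_2 had the lowest mean and the least scatter, with 9.48, 9.58, 9.54 and 9.41 (mean 9.50 ± 0.07, n = 4). All 4 of its arrays were below the M82 mean and 2 were below every M82 array. The order of the means was IL-8_1_1, IL-1_1_3, IL-4_2, M82 and IL-7_2, which is not the order seen for SODCP.2.

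The comparisons of DHAR2 that its choice did not use did not pass the test either. Its log2 change from M82 was 0.19 ± 0.18 (SE) in IL-1_1_3, with a 95% interval of -0.19 to 0.57 and an adjusted p of 0.545 in limma. Without its array 1 this was 0.42, without array 2 it was 0.03 and without array 3 it was 0.12, with no call. In IL-4_2 the change was 0.04 ± 0.16, with an interval of -0.31 to 0.39 and a limma adjusted p of 0.923. In IL-7_2 it was -0.29 ± 0.16, with an interval of -0.64 to 0.05 and a limma adjusted p of 0.475.

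Set against each other rather than against M82, the lines gave 6 further tests that the choice did not use. For SODCP.2, IL-4_2 exceeded IL-7_2 by 0.24 ± 0.13 (SE) with a limma adjusted p of 0.348, and exceeded IL-8_1_1 by 0.16, with a 95% interval of -0.11 to 0.43. IL-7_2 minus IL-8_1_1 was -0.08, with an interval of -0.35 to 0.18. For DHAR2, IL-1_1_3 minus IL-7_2 was 0.48 ± 0.20, whose unadjusted interval of 0.07 to 0.89 excluded 0, but its limma adjusted p was 0.196. IL-4_2 minus IL-7_2 was 0.33 ± 0.18 with a limma adjusted p of 0.369, and IL-1_1_3 minus IL-4_2 was 0.15, with an interval of -0.26 to 0.56. None of the 6 passed. The shares of all probe sets called in these contrasts were 4.92% for IL-4_2 against IL-7_2, 2.33% for IL-4_2 against IL-8_1_1, 4.46% for IL-7_2 against IL-8_1_1, 1.67% for IL-1_1_3 against IL-4_2 and 3.27% for IL-1_1_3 against IL-7_2.

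Described without a test, SODCP.2 was lower in IL-1_1_3 than in the other lines as well, by 0.55 than IL-4_2 on the log2 scale, by 0.39 than IL-8_1_1 and by 0.31 than IL-7_2. DHAR2 in IL-7_2 minus IL-8_1_1 was -1.04, a 2.05-fold difference, the widest among its group means.

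The adjusted p-values that chose the pair lay close to the threshold of 0.05, at 0.0427 for SODCP.2 in IL-1_1_3 and 0.0232 for DHAR2 in IL-8_1_1 (limma). The next redox gene outside the threshold was the catalase gene cat1 in IL-1_1_3, with a change of -0.26 and a limma adjusted p of 0.0602, and in IL-8_1_1 it was GMP, with a change of 0.38 and 0.846. The call on SODCP.2 ended when any 1 of 13 of the 21 arrays was left out, namely M82 arrays 1, 2, 4, 5 and 6, all 3 of IL-1_1_3, IL-4_2 arrays 1, 2 and 4, and IL-8_1_1 arrays 3 and 4, while its log2 change stayed between -0.58 and -0.44. That on DHAR2 ended without any 1 of 4 arrays, M82 arrays 4 and 6 and IL-8_1_1 arrays 1 and 2, with a change between 0.56 and 0.85.

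Genes of the chloroplast's photosynthetic apparatus lay low beside SODCP.2 in IL-1_1_3. The photosynthesis list held POR2, PETE, CAB4, CAB5, CAB6A, PSBO, PSBP, PSBR and PsbQ. PETE was outside the symbols planned for it, and the planned RBCS, PSA, LHC and RCA genes are not in it. All 9 genes were below M82 in IL-1_1_3, with a median log2 change of -0.73 against 0.03 over all probe sets. Of the 9, 2 passed the test, where 6 had an unadjusted p under 0.05. CAB6A, a light-harvesting chlorophyll-binding protein, fell by 0.73 (limma adjusted p = 0.0232), and POR2, a protochlorophyllide reductase of chlorophyll synthesis, fell by 0.83 (limma adjusted p = 0.0335). CAB6A was no longer called without M82 array 6 or IL-1_1_3 array 2, and POR2 without M82 arrays 1, 5 or 6 or any array of IL-1_1_3. Both calls also ended with only the 2 groups compared. Of all probe sets, 1.03% fell and 0.941% rose in this line at the adjusted threshold. The share with an unadjusted p under 0.05 was not counted, so the 6 genes have no background beside them. The mean of the list, relative to M82, was -0.46, -1.10 and -0.23 in the 3 IL-1_1_3 arrays and lay between -0.32 and 0.22 in M82. Array 2 of IL-1_1_3 was the lowest of the 21 arrays both in this mean and in SODCP.2. The part of these genes in the SODCP.2 result was not tested.

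The list lay below M82 in the other lines too, by a smaller median. In IL-7_2 all 9 genes were below M82 with a median of -0.40, and PsbQ, a protein of the oxygen-evolving complex, was the single gene called (-0.40, limma adjusted p = 0.0301), while 6 had an unadjusted p under 0.05. In that line 1.14% of all probe sets fell and 1.7% rose. The call on PsbQ ended without M82 arrays 1, 2, 5 or 6 or IL-7_2 arrays 1 or 4, and with only the 2 groups compared. In IL-4_2 and in IL-8_1_1, 8 of 9 were below M82, with medians of -0.24 and -0.12 and no gene called by limma. There, 1 gene had an unadjusted p under 0.05 in IL-4_2 and 0 in IL-8_1_1. For these lines too the share of all probe sets with such an unadjusted p was not counted.

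The mean of the pollen list was highest in the IL-8_1_1 array with the most DHAR2. The mean of the 5 markers, relative to M82, was 1.68 in array 2 and 0.30, 0.24 and -0.03 in arrays 1, 3 and 4, against -0.48 to 0.49 in M82. The largest contributor was Stig1, the stigma gene, which measured 8.86 in array 2 and 4.22, 4.33 and 4.19 in the others. PRK3, a pollen receptor kinase, measured 9.86 in array 2 and 8.46, 7.88 and 7.54 in the others. The next highest list mean of any array was 0.74, in IL-7_2 array 2, where PRK3 measured 9.72 and DHAR2 only 9.58. A high list mean therefore did not always go with high DHAR2. In the 3 remaining IL-8_1_1 arrays Stig1 was inside the M82 range of 4.12 to 4.36, and DHAR2 measured 10.51, 10.23 and 10.33 there. The part of these markers in the DHAR2 result was not tested. No marker was called in any line by limma, and none had an unadjusted p under 0.05.

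**Figure D2:**
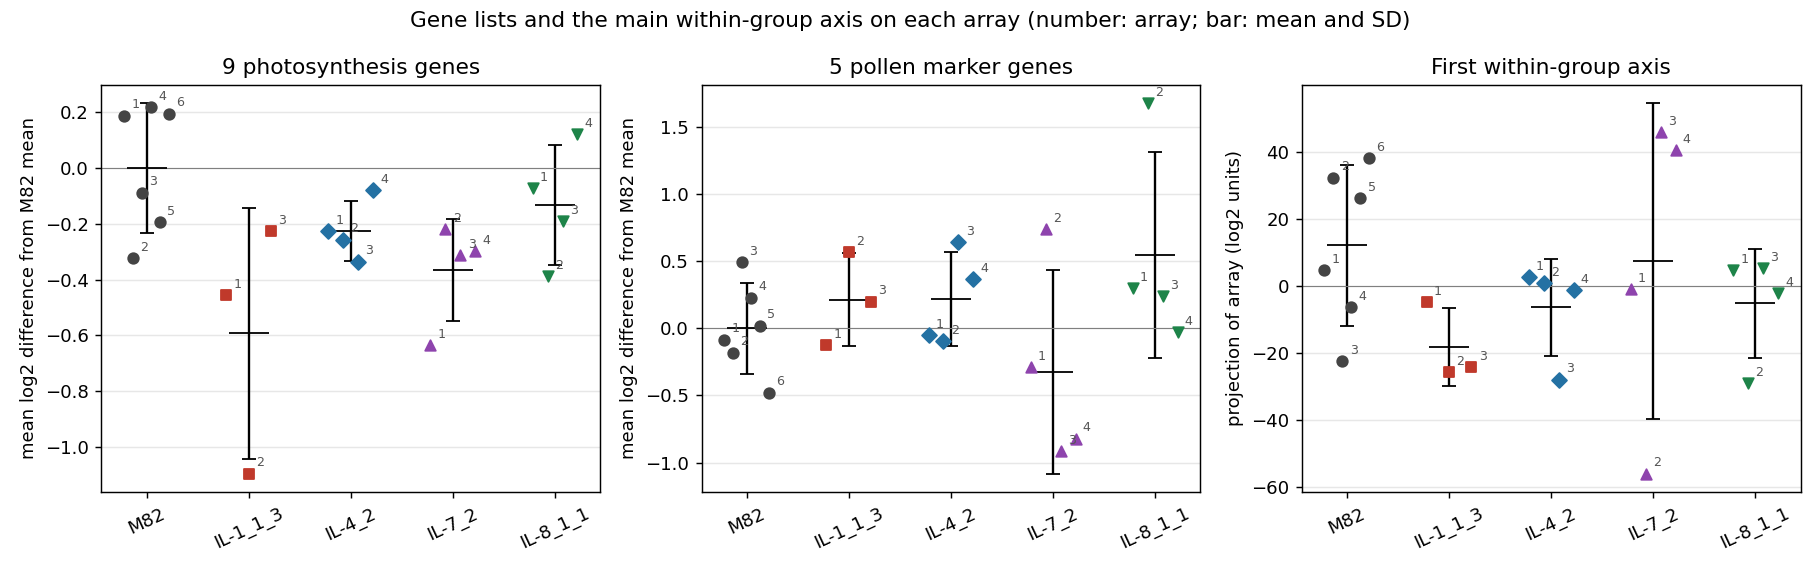
Mean log2 value of the photosynthesis list (left) and of the pollen list (middle) in each array relative to the M82 mean, and the projection of each array on the main within-group axis described next (right), with bars at the group means and SDs. IL-1_1_3 array 2 is lowest for the photosynthesis genes at -1.10. IL-8_1_1 array 2 is highest for the pollen list at 1.68, with Stig1 as the largest contributor.

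Within the groups, SODCP.2 followed the strongest pattern of difference between replicate arrays. The first principal component of the deviations from the group means, called the axis here, held 59.2% of the within-group variance, and its sign is arbitrary. Over the 21 arrays the deviations of SODCP.2 correlated with the axis at Pearson's r = 0.793 (two-sided permutation p = 0.00107 over 100000 permutations within groups, 0.00535 after Benjamini-Hochberg adjustment over 5 relations). Spearman's rho was 0.803 (permutation p = 0.00071, adjusted 0.00355). Without the 2 arrays farthest out, IL-7_2 array 2 and M82 array 3, r was 0.791. A correlation at least this large with the axis was found for 30.8% of all probe sets, so the relation is common on these arrays, and SODCP.2 is itself 1 of the 10101 probe sets that make the axis.

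The groups also differed in their mean position on the axis. Its mean was -18.2 ± 11.6 (SD, n = 3) in IL-1_1_3 against 12.0 ± 24.0 in M82 (n = 6), with the means of the other lines in between. With the axis as a covariate, a setting chosen after seeing the data, the SODCP.2 difference of IL-1_1_3 from M82 was -0.35 ± 0.09 (SE) instead of -0.52. Under the same setting IL-4_2 exceeded IL-7_2 by 0.32, which passed the test (limma adjusted p = 0.0174), whereas without the covariate it did not. The DHAR2 difference of IL-8_1_1 was then 0.70.

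**Figure D3:**
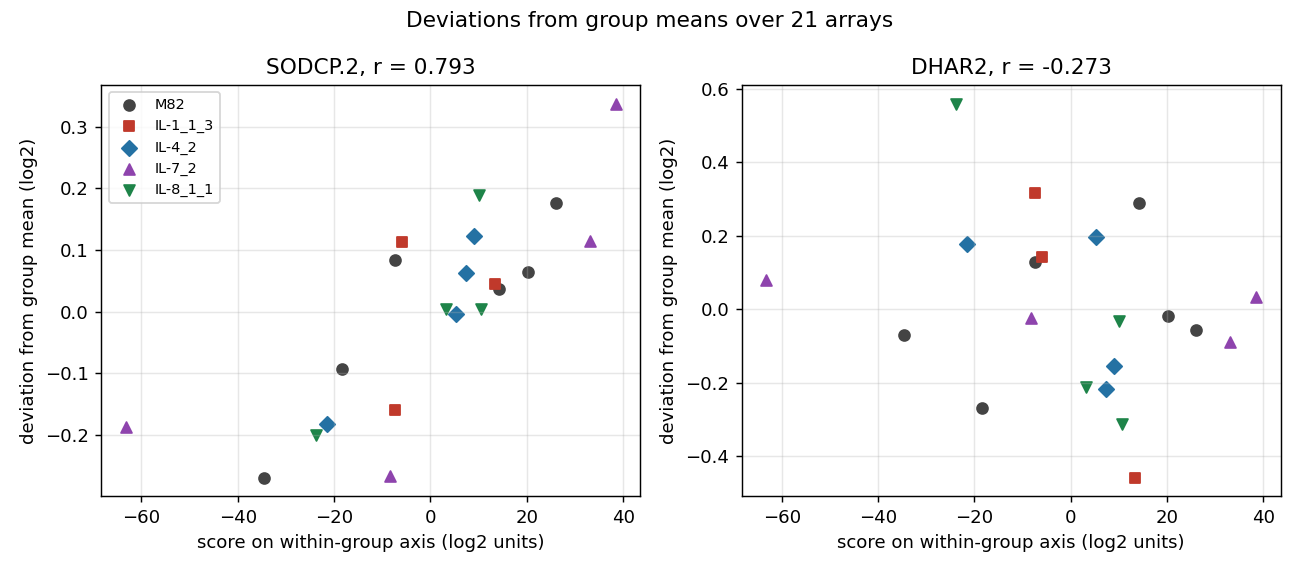
Deviation of SODCP.2 and of DHAR2 from the group mean (log2) against the deviation on the axis, for 21 arrays coloured by group. SODCP.2 follows the axis with r = 0.793, and DHAR2 has r = -0.273.

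The 4 other relations did not pass. DHAR2 against the axis gave r = -0.273 (permutation p = 0.0914, adjusted 0.152) and rho = -0.275 (permutation p = 0.185, adjusted 0.308), with r = -0.357 without the 2 farthest arrays. SODCP.2 against DHAR2 gave r = -0.253 (permutation p and adjusted p 0.244) and rho = -0.213 (permutation p and adjusted p 0.356), and r was -0.115 without IL-8_1_1 array 2 and IL-1_1_3 array 1. SODCP.2 against the mean of the photosynthesis list gave r = 0.431 (permutation p = 0.0605, adjusted 0.151) and rho = 0.351 (permutation p = 0.144, adjusted 0.308), and r = 0.459 without the 2 farthest arrays. DHAR2 against that mean gave r = -0.397 (permutation p = 0.217, adjusted 0.244) and rho = -0.316 (permutation p = 0.257, adjusted 0.321), and r = -0.324 without its 2 farthest arrays.

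The genes most like each member were ranked by the correlation of deviations from group means over the 21 arrays, among 701 named probe sets. Nearest to SODCP.2 were both probe sets of FKBP12, an immunophilin, with r = 0.95 each, and GLB2, a plant haemoglobin, with r = 0.90. Most opposed were the 3 probe sets of ca2, at -0.90, -0.89 and -0.89. The spread over all probe sets was wide, with a 5th percentile of -0.78 and a 95th of 0.83, and all arrays share the axis. For DHAR2 the nearest were NRAMP1, a metal transporter, at 0.75, LIN8, a cell wall invertase, at 0.72 and SNF1, a protein kinase, at 0.69. Farthest from DHAR2 were matriochka at -0.79, the 14-3-3 protein gene TFT9 at -0.72 and TMT at -0.71, against a 5th to 95th percentile range of -0.47 to 0.51. None of these genes was called in the line that chose the member they were ranked for.

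The other superoxide dismutases were not called against M82 in any line. SODCC.1, the cytosolic copper/zinc form, measured 14.03 in both M82 and IL-1_1_3, with SDs of 0.09 (n = 6) and 0.13 (n = 3). Its log2 differences from M82 in IL-4_2, IL-7_2 and IL-8_1_1 were 0.07, 0.03 and 0.03. FESOD, the iron form, was at 0.07 in IL-1_1_3, 0.30 in IL-4_2, 0.30 in IL-7_2 and 0.25 in IL-8_1_1, with no call (limma adjusted p of at least 0.445). Its second probe set was at 0.23, 0.37, 0.32 and 0.11 in the same order, also without a call. Within groups, the deviations of SODCP.2 had an r of -0.15 with SODCC.1 and 0.18 with FESOD.

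No other gene of the ascorbate-glutathione cycle was called against M82 in any line. DHAR1, the sister dehydroascorbate reductase, has 2 probe sets, whose log2 changes in IL-8_1_1 were 0.09 and 0.12. The first of them measured 13.02 ± 0.09 in M82 (SD, n = 6) and 13.12 ± 0.03 (n = 4) in IL-8_1_1. MDHAR, monodehydroascorbate reductase, was below M82 in every line, at -0.38 in IL-1_1_3, -0.27 in IL-4_2, -0.21 in IL-7_2 and -0.25 in IL-8_1_1, none of them called (limma adjusted p of at least 0.298). Of the ascorbate peroxidases, APX was at -0.21 in IL-1_1_3 (limma adjusted p = 0.118) and 0.04 in IL-8_1_1, APX1 at -0.03 and 0.08, and APX2 at -0.08 and 0.04. A second probe set of APX2 was at -0.41 in IL-1_1_3 and -0.18 in IL-8_1_1, also without a call. The within-group r of DHAR2 with DHAR1 was -0.19 and with MDHAR -0.37.

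Among the genes that make ascorbate, PMM is the phosphomannomutase that supplies mannose 1-phosphate to the pathway. Its probe sets differed from each other in IL-8_1_1, the line in which DHAR2 was high. The probe set with its highest mean measured 10.66 ± 0.56 (SD, n = 6) in M82 and 7.55, 8.41, 7.66 and 7.03 in IL-8_1_1, all below the lowest M82 array at 9.79. The log2 change was -2.99 ± 0.41 (SE, limma adjusted p = 0.000163). The other 2 probe sets of PMM differed from each other. The first also fell and was called, at -5.94. Its IL-8_1_1 values of 3.78 to 3.89 lay near the table's lowest value of 3.39, so that size may be limited by the floor of the scale. The other was at -0.29 and was not called (limma adjusted p = 0.851). GLDH, which catalyses the last step of ascorbate synthesis, was at 0.05 in IL-8_1_1 and -0.12 in IL-1_1_3, with no call.

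The redox list held 30 genes with the pair included, and few were called in any line. In IL-1_1_3, 0 rose and 1 fell, SODCP.2 itself, and the median log2 change was 0.02 against 0.03 over all probe sets. In IL-8_1_1, DHAR2 rose and PMM fell, the latter by its probe set with the highest mean and not by all of its probe sets. The median was 0.04 against 0.01, where the shares called over the whole array were 0.624% up and 0.812% down. In IL-4_2 only MT3 of the list was called, which rose, with a median of 0.08 against 0.03, where those shares were 0.881% and 0.95%. In IL-7_2 limma called 0 of the 30 and 2 had an unadjusted p under 0.05, with a median of 0.03 against 0.04, where they were 1.7% and 1.14%. Leaving out the pair, limma called 0 of the 28 other genes in IL-1_1_3 and 1 in IL-8_1_1. In IL-1_1_3, 4 of the 28 had an unadjusted p under 0.05. The unadjusted counts have no share over all probe sets beside them and are not read as a result.

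MT3, a metallothionein that binds metal ions, measured 11.09, 10.38, 11.26 and 9.08 in IL-4_2 against a range of 6.39 to 9.17 in M82. The groups overlapped by 1 array, and the log2 change was 3.02 ± 0.64 (SE, limma adjusted p = 0.0142). The call ended without IL-4_2 array 1 or array 3. MT3 was above M82 in the other lines too, by 1.53 in IL-1_1_3, 0.93 in IL-7_2 and 0.18 in IL-8_1_1. None of those was called (limma adjusted p of at least 0.233). AOX1a, the alternative oxidase of mitochondria, was at 1.73 in IL-8_1_1, 1.06 in IL-1_1_3, 0.89 in IL-4_2 and -0.64 in IL-7_2 relative to M82, yet none of these was called (limma adjusted p of at least 0.655). Its values in M82 alone ran from 6.51 to 11.69. By contrast the within-group SD was 0.18 for SODCP.2 and 0.27 for DHAR2, at the 46.5th and 67.7th percentile of all probe sets.

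**Figure D4:**
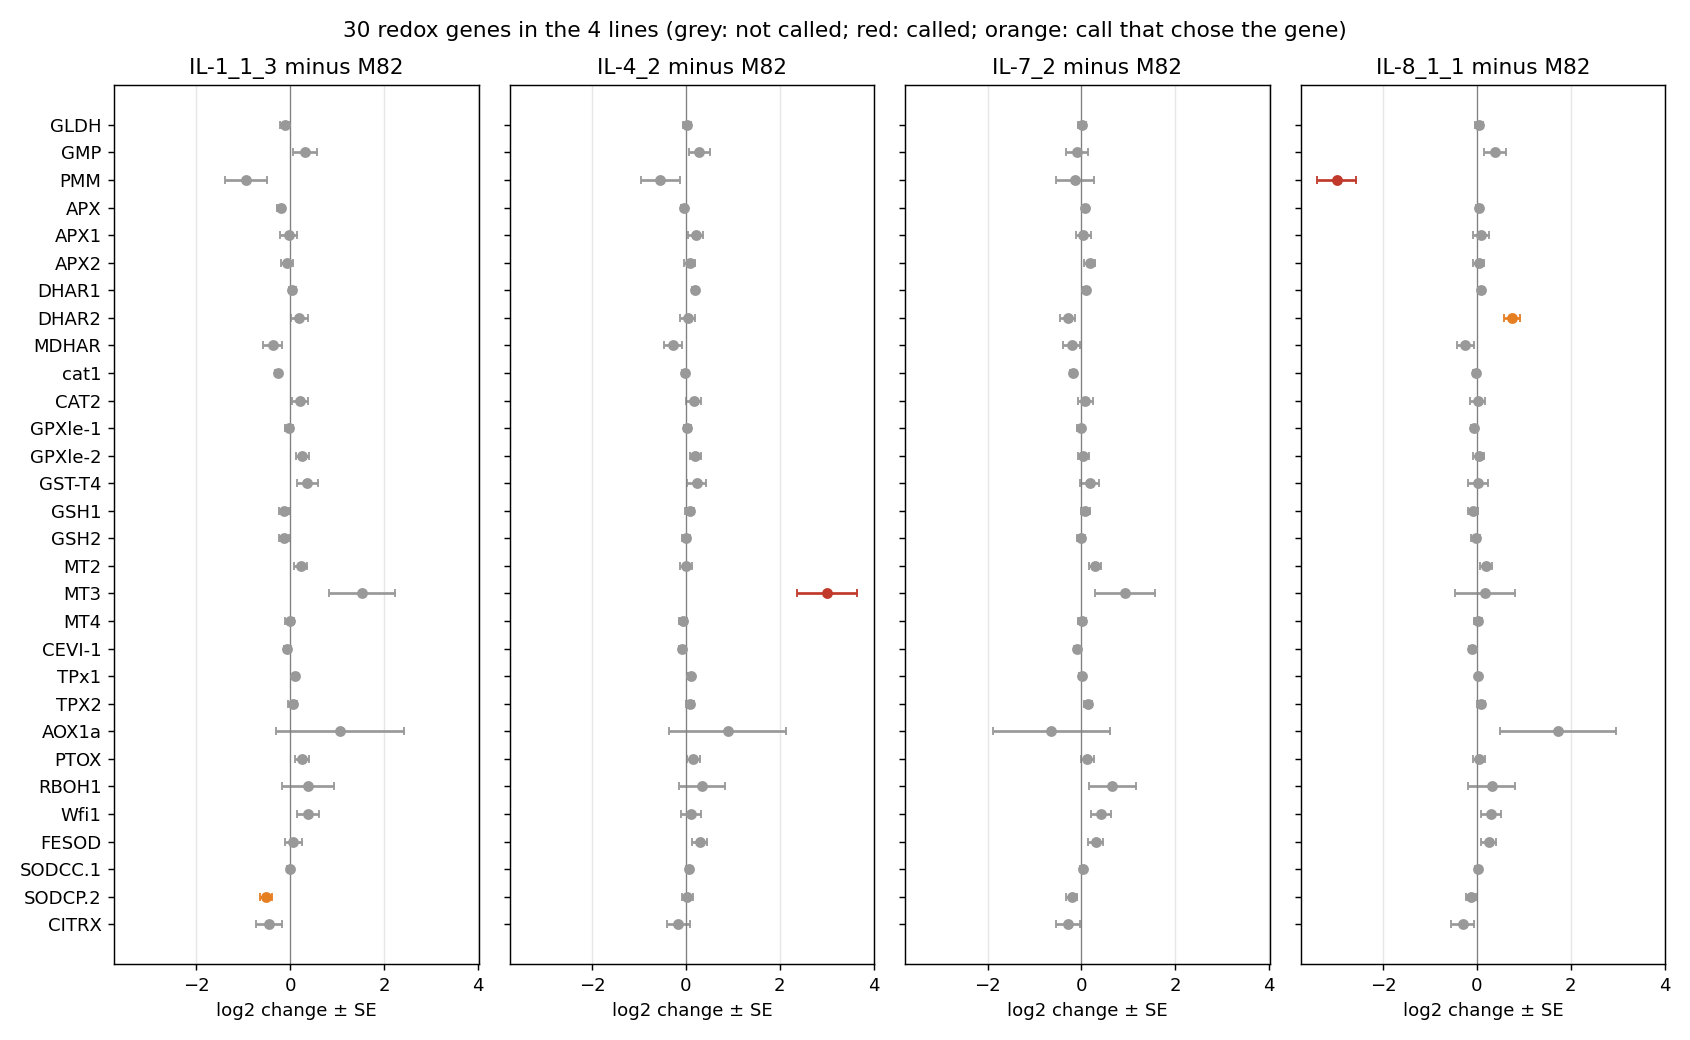
Log2 change from M82 of the redox genes in the 4 lines, grouped by role, with bars of 1 SE, grey where not called, red where called and orange for the calls that chose the pair. Each gene is shown by its probe set with the highest mean. SODCP.2 in IL-1_1_3, DHAR2 and PMM in IL-8_1_1 and MT3 in IL-4_2 are the calls, and SODCC.1, FESOD and DHAR1 carry none.

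Other redox genes were ranked by their within-group r with each member. For SODCP.2 the highest were GLDH (r = 0.82), CITRX, a thioredoxin (0.78), cat1 (0.71) and MDHAR (0.66). The lowest were Wfi1, an NADPH oxidase (-0.83), and GMP, the GDP-mannose pyrophosphorylase (-0.70). Of these only Wfi1 lay outside the 5th to 95th percentile range over all probe sets, -0.78 to 0.83. For DHAR2 the highest was GMP (0.62) and the lowest GPXle-1, a glutathione peroxidase (-0.51), against a range of -0.47 to 0.51. These are correlations of deviations over 21 arrays that share the axis, given as descriptions.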

How the data were processed

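Gene expression was measured on Affymetrix tomato arrays with biotin-labelled total RNA of anthers, 21 arrays in 5 groups taken from the sample titles. The authors' deposited table holds log2 values, judged from their range. Per the submitters' processing notes the affy package was used, and neither its version nor the background correction and summarisation it ran could be read from the labels. A table without scanner files allows no check of detection. Apart from that, the small number of arrays in each group limits the precision. The values were used as deposited, and 108 control probe sets of 10209 were left out. No gene sequences were at hand, so how well each probe set matches the Solanum pennellii segments was not checked.

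limma 3.58.1 in R 4.3.3 fitted all 5 groups together (lmFit and eBayes, 16 residual degrees of freedom), with Benjamini-Hochberg adjustment over the 10101 probe sets of each comparison and a threshold of 0.05. The fit was also run on simulated data with noise drawn independently for each probe set. These arrays share the axis, so that run does not bear on how stable the calls are here. Permutation tests and tables used Python 3.11.15, numpy 2.4.6, pandas 2.3.3 and SciPy 1.17.1.

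The named genes are the pair, the superoxide dismutases and ascorbate-glutathione cycle genes, every other redox gene called in a line, and the 3 named probe sets most and least like each member. GLDH, GMP, cat1, AOX1a, Wfi1, CITRX, GPXle-1 and the marker genes fall outside that rule and were named after their values were seen. The redox list was assigned by hand from gene symbols alone. The members, the lists and the rules were chosen with earlier results of these data known. A gene with several probe sets was represented by the one with the highest mean. Alternatives were a fit of only the groups compared, cyclic loess, leaving out the dimmest 0.25 of probe sets, the replicate number as a block, leaving out each array in turn and, chosen after seeing the data, the axis as a covariate or its 3 farthest arrays left out.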

Additional observations from a re-analysis of the deposited data

Results flagged for a closer look

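Arrays and contrasts that stood apart are given here as values. An array far from the rest of its group was looked for in 104 groups of 26 genes, and 7 were found, where chance alone marks about 5% of groups. Stig1 in IL-8_1_1 array 2 measured 8.86, above the 3 others at 4.19 to 4.33, in the array with the highest DHAR2. In M82 array 3, which lies far out on the axis, GMP measured 11.54 against 10.92 to 11.15 in the 5 others, and Wfi1 measured 7.98 against 7.16 to 7.35. In IL-7_2 array 2, also far out on the axis, PRK2 measured 12.94 against 12.28 to 12.32. For PMM, IL-4_2 array 3 measured 9.39, below the 3 others at 10.31 to 10.43. For APX, M82 array 1 measured 7.17, below the 5 others at 7.31 to 7.33. For MT3, IL-8_1_1 array 4 measured 9.11, above the 3 others at 6.94 to 7.30.

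The change from M82 differed between lines for 4 genes by limma's test of the difference. The same contrasts called 4.92% of all probe sets for IL-4_2 against IL-7_2, 2.33% for IL-4_2 against IL-8_1_1, 4.46% for IL-7_2 against IL-8_1_1 and 3.27% for IL-1_1_3 against IL-7_2. The share for IL-1_1_3 against IL-8_1_1 was not counted. The number of genes is therefore not read as a result. On its probe set with the highest mean, PMM in IL-1_1_3 exceeded that in IL-8_1_1 by 2.05 on the log2 scale (adjusted p = 0.038), in IL-4_2 by 2.45 (adjusted p = 0.00232) and in IL-7_2 by 2.86 (adjusted p = 0.000428). On another probe set of PMM the means were 8.91 in IL-1_1_3 and 9.16 in IL-4_2, below the 9.43 of IL-8_1_1, and 9.52 in IL-7_2. Its remaining probe set had the same direction as the first. The means there were 9.03 in IL-1_1_3, 9.30 in IL-4_2 and 9.67 in IL-7_2, against 3.82, near the floor of the scale, in IL-8_1_1. MT3 was 2.84 higher in IL-4_2 than in IL-8_1_1 (limma adjusted p = 0.0347). APX in IL-1_1_3 minus IL-7_2 was -0.29 (limma adjusted p = 0.0439). PsbQ was 0.39 higher in IL-4_2 than in IL-7_2 (limma adjusted p = 0.0457), and in IL-7_2 minus IL-8_1_1 it was -0.45 (limma adjusted p = 0.02). DHAR2 in IL-7_2 minus IL-8_1_1 was -1.04, with every IL-7_2 array below and every IL-8_1_1 array above the M82 mean, and this difference was not tested because IL-8_1_1 chose the gene.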

How the results depend on the processing

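Within the alternatives tried, SODCP.2 stayed below M82 in IL-1_1_3 and DHAR2 above it in IL-8_1_1, while values near 0 turned sign. The change of SODCP.2 in IL-4_2 was -0.022 with the 3 arrays farthest out on the axis left out, and that of DHAR2 in IL-4_2 was -0.0112 with the axis as a covariate. Leaving out each array in turn, the first ranged from -0.022 to 0.0925 and the second from -0.0262 to 0.112, SODCP.2 in IL-7_2 minus IL-8_1_1 from -0.194 to 0.0072, and DHAR2 in IL-1_1_3 minus IL-4_2 from -0.0096 to 0.378. The causes were not tested.

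Redox genes called in IL-1_1_3, 1 in the reported fit, were 0 with only the 2 groups compared, 2 with cyclic loess (cat1 added), 0 with the replicate block, 4 with the 3 arrays left out, and 0 to 2 without each array in turn. In IL-4_2 the 1 call became 0 with the replicate block and 0 to 1 without each array. In IL-7_2 the axis as a covariate gave 1 in place of 0. In IL-8_1_1, 2 calls became 1 with only the 2 groups compared, with the replicate block and with the 3 arrays left out, and 1 to 2 without each array. Probe sets called, 199 in IL-1_1_3, were 86 in the 2-group fit, 32 with the block and 1804 with the 3 arrays left out, and 43 to 625 without each array. For IL-4_2, 185 became 92 with the block, 578 with the 3 arrays left out and 356 with the axis as a covariate, and 118 to 310 without each array. For IL-7_2, 287 became 106 in the 2-group fit, 137 with the block and 961 with the covariate, and for IL-8_1_1, 145 became 83 with the block. The calls that chose the pair, and those on CAB6A, POR2 and PsbQ, ended in the 2-group fit and with the replicate block, and that of DHAR2 also with the 3 arrays left out. Same-numbered arrays of different groups had deviations that correlated between -0.806 and 0.698 over 36 pairs. This range was not set against that of differently numbered arrays. Whether the numbers mark a shared source was therefore not tested, and the block is given as an alternative. Each member has 1 probe set, so no second probe set could be tried.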
